A study of Mus musculus with 12 samples.

Results

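Intermediate filament genes were followed in P19 cells differentiating into neuron-like cells, from the cytoskeletal genes Vim, Nes, Krt8, Krt18, Krt19, Ina, Nefl and Nefm to the nuclear lamin gene Lmna. Reads were taken when they passed the authors' quality tag, were classed as mRNA and carried 1 of these 9 gene names. They came to 6509 of 4274320 reads on nuclear mRNAs, and 8 of the 9 genes had at least 1 read, of 14042 genes with reads in all. Of the 9 genes, 6 had the 30 reads over all libraries that were required for the abundance test, which ran on 9309 genes. The remaining 3, Krt8, Krt18 and Krt19, had too few reads to test.

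P19 is a mouse embryonal carcinoma line, pluripotent cells of tumor origin, here wild type and 1 line only. Undifferentiated cells (D0) grew in serum-containing medium. The other groups were plated on poly-L-lysine in NDiff 227 medium with retinoic acid, and RNA was taken after 2, 4 and 6 days (D2, D4 and D6), so medium, retinoic acid and time changed together. Each day had 3 biological replicates, 12 libraries in all, of native poly(A) RNA read on nanopores. In this assay 1 read is 1 RNA molecule, entered from its 3′ end, and the read also gives the length of its poly(A) tail, so read numbers were not divided by transcript length. Levels are given as CPM, the reads on a gene per 1000000 usable reads of the scaled library.

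Intermediate filaments are rope-like polymers of related coiled-coil proteins, and the protein used depends on the cell type. In textbook accounts, keratins 8, 18 and 19 pair up in simple epithelia, including the first epithelia of the embryo, vimentin fills mesenchymal and dividing progenitor cells, and nestin joins vimentin in neural progenitors. As neurons mature, alpha-internexin and the light, medium and heavy neurofilament chains fill the axon and set its caliber. Lamin A and lamin C, both made from Lmna, line the inside of the nuclear envelope and are scarce in most early embryonic cells.

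The libraries held 120326 to 613756 usable reads, the 3 D2 libraries being the shallowest. The D0 libraries carried the embryonal carcinoma marker Pou5f1 at 1703 ± 148 CPM (SD, n = 3), against 6.79 ± 6.22 at D2 and 0.903 ± 1.56 at D6. All 9 tested genes of a neuron list were called higher at D6 than at D0 (adjusted p of at most 0.05), where 19% of all tested genes were. At D2 against D0, 1 of these 9 was called higher and 2 lower, where 4.69% and 6.11% of all tested genes were. Each of the 13 sequencing runs held 1 day only, so day and run could not be told apart within a run. The names of all 3 runs of D0 called the cells undifferentiated but also contained D2, while 2 of the 4 D6 runs named no day. Libraries were grouped by their sample labels, and the Pou5f1 values were highest in those labelled D0.

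The mRNA ends themselves were read first, because each read starts at its poly(A) tail. The following 30-base windows run from 5′ to 3′ up to the most frequent last base before the tail, with the polyadenylation hexamer in capitals. They are shown for the 5 cytoskeletal genes that were tested, and Nefl is given with both of its ends. Sequences are of the mouse mm10 transcripts.
Vim: acttgttactgcttcAATAAAtcttcaaaa
Nes: ctcccttgAATAAAgctgtatccctaccta
Ina: aatctaagaaATTAAAagtcattaatccta
Nefl, proximal end: aaatagtaAATAAAgttacactgaatgaca
Nefl, distal end: ccatAATAAAatattgaaaaaaaatctaaa
Nefm: tgctcAATAAAggtcatactggaaacataa

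All 6 windows lie in the annotated 3′ UTR, at chr2:13582793-13582822 on the plus strand for Vim, chr3:87980419-87980448 (plus) for Nes, chr19:47025298-47025327 (plus) for Ina, chr14:68087861-68087890 and chr14:68089061-68089090 (both plus) for Nefl and chr14:68119545-68119574 (minus) for Nefm. The hexamer AATAAA stood in 65.9% of 9201 such windows over all transcripts and ATTAAA in 17.7%, so holding 1 of them was usual (81.0%). Vim, Nes, Ina and the distal Nefl end lay within 5 bases of the annotated end. Nefm reads ended 262 bases before the annotated end of the transcript, and 92.5% of its 744 reads did so within 5 bases of the same place. Of the 20 bases that follow there in the annotated transcript, 4 were A.

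Vimentin carried most of the intermediate filament mRNA on every day and rose late. Its level was 375, 388 and 367 CPM in the D0 libraries (replicates 1, 2 and 3) and 440, 510 and 462 at D2. It then reached 1700, 1876 and 1548 at D4 and 1815, 1854 and 1594 at D6. The D4 and D6 libraries all stood above the D0 and D2 libraries and overlapped each other, and the D2 libraries stood above those of D0 by a small step. The mean was 377 ± 10.6 before differentiation and 470 ± 35.8 on D2, while D4 reached 1708 ± 164 and D6 1754 ± 141 (SD, n = 3 each).

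The fold changes came from limma-voom fitted to all genes and all 12 libraries, with p-values adjusted by Benjamini-Hochberg over the 9309 genes and called at 0.05. Vim was 4.50 times higher at D4 than at D0 (log2 fold change 2.17 ± 0.11 SE, adjusted p = 2.05e-26) and 4.64 times higher at D6 (2.21 ± 0.11, adjusted p = 3.68e-27). At D2 the difference was 0.34 ± 0.14 on the log2 scale and was not called (adjusted p = 0.112). Scaling each library by its total in place of the trimmed mean of M-values (TMM) moved the median of all genes by 0.17 at D2, 0.11 at D4 and 0.26 at D6, and made the Vim step at D2 pass (adjusted p = 0.00574). Relative to that median shift, the Vim difference at D2 was 0.34 under this scaling too. The step also passed when genes averaging under 20 reads were dropped (0.40, adjusted p = 0.0207), with only the D0 and D2 libraries in the fit (0.43, adjusted p = 0.0176) and with a barcode confidence of at least 0.9 (0.45, adjusted p = 0.0401). Between D2 and D4, Vim rose by 1.83 ± 0.12 (adjusted p = 1.92e-18), and the difference from D4 to D6 was 0.04 ± 0.09 (adjusted p = 0.831).

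**Figure D1:**
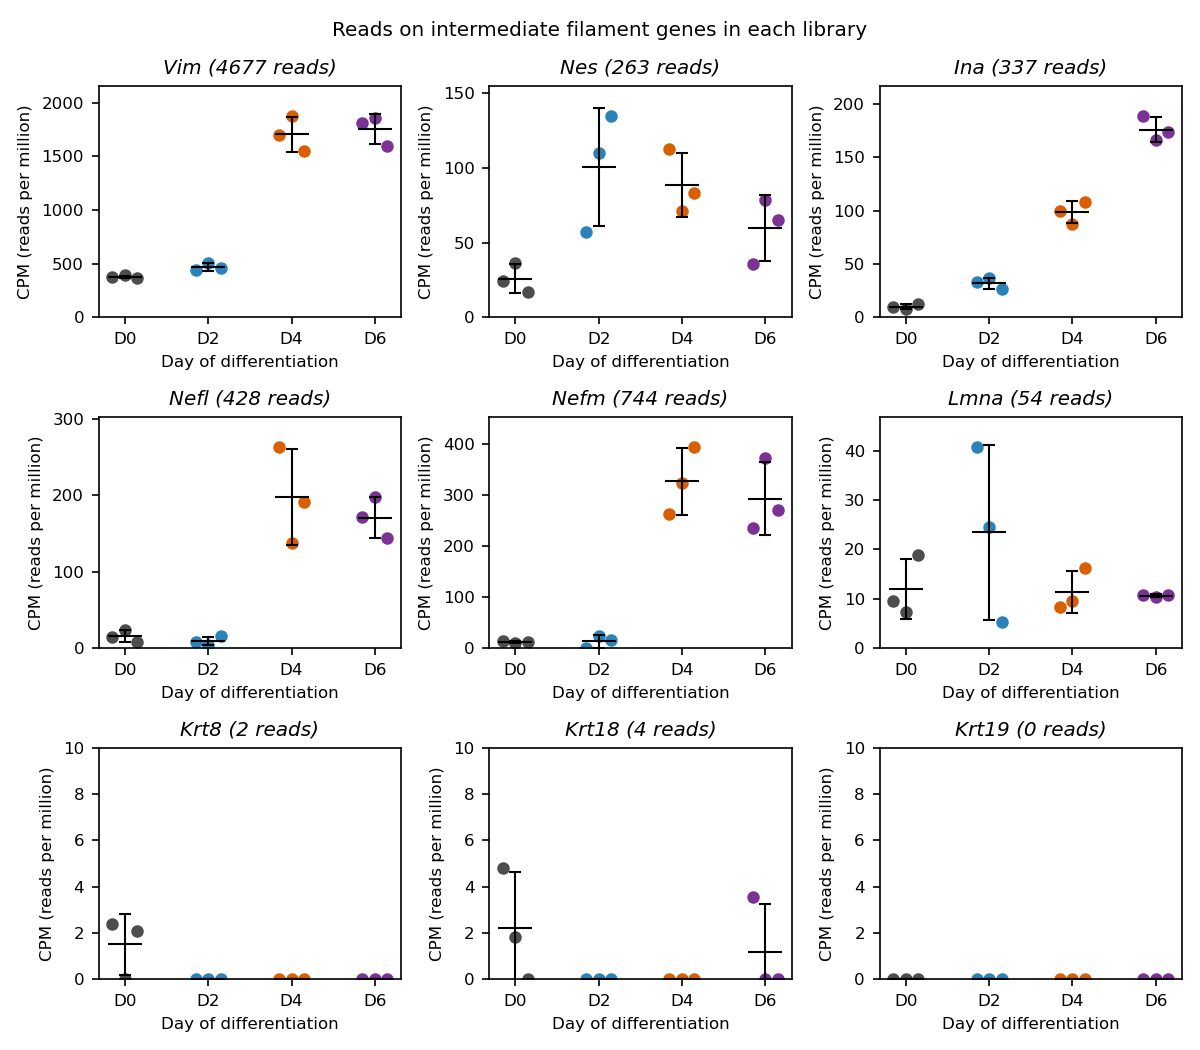
Levels (CPM) on each of the 9 genes (y axes, linear and starting at 0, a separate scale for each gene) in the 3 libraries of each day (x axes). Points are libraries, and bars are the mean and SD of a day. Vim, Nefl and Nefm step up between D2 and D4, Ina climbs at each day, Nes is highest at D2 and D4, and Krt8, Krt18 and Krt19 have 2, 4 and 0 reads.

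The start of Vim mRNA was also visible in the reads. Of 4625 reads on the main Vim transcript, 1882 (40.7%) began between bases 360 and 400 of the annotated transcript and only 56 (1.21%) began earlier. The most frequent first base was chr2:13574323, which lies 371 bases inside the annotated transcript and 12 bases after the start that RefSeq gives. The sequence around that RefSeq start, at chr2:13574211-13574330 on the plus strand (build GRCm38.p6, 100 bases before the start and 20 from it on), is printed to show where the reads begin, with a TATAAA box and the reverse complement of CCAAT in capitals.
Vim promoter: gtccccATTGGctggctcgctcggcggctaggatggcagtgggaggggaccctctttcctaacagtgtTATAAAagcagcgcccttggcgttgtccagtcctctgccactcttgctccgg

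TATAAA was found on either strand in 6.10% of 32851 RefSeq promoter windows of this length and CCAAT in 20.8%. The Krt8 window held TATAAA too, on both strands. The RefSeq windows of Nes, Ina and the longer Lmna transcript held GGGCGG on the minus strand, as 26.7% of all windows did. AGGTCA, a core letter string of retinoic acid receptor elements, was in 6.89% of windows and in none of those of Vim, Nes, Lmna, Krt8, Krt18 and Ina, which says only that these letters are not there. Nefl, Nefm and Krt19 were not among the promoters used here.

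Nestin, like Ina, was called higher at D2 already. It was at 24.0, 36.5 and 16.8 CPM in the D0 libraries, 57.0, 110 and 135 at D2, 113, 71.0 and 82.9 at D4 and 35.6, 78.8 and 65.0 at D6. The D2 and D4 libraries all stood above D0, while the lowest D6 library fell within the D0 range. Nes was 4.01 times higher at D2 (log2 fold change 2.00 ± 0.34, adjusted p = 9.66e-06), 3.27 times at D4 (1.71 ± 0.31, adjusted p = 1.49e-05) and 2.37 times at D6 (1.24 ± 0.33, adjusted p = 0.00182). The D4 and D6 calls were lost after thinning to the smallest library (adjusted p = 0.0786 and 0.0959). The differences from D2 to D4 (-0.30 ± 0.28, adjusted p = 0.654) and from D4 to D6 (-0.46 ± 0.26, adjusted p = 0.296) were not called, so a decline after D2 was not shown. The 263 Nes reads were split by the aligner between a pair of near-identical transcripts, Nes-201 with 138 reads and Nes-203 with 125, all at a mapping quality of 0. The gene total is therefore the measure used here, and with reads of mapping quality 10 or more Nes has no value.

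Alpha-internexin, the earliest of the neuronal chains to appear in textbook accounts, was called higher at each of the 3 steps. Ina was at 9.62, 7.29 and 12.6 CPM at D0, 32.6, 36.7 and 25.9 at D2, 100, 87.5 and 108 at D4 and 189, 166 and 173 at D6. No 2 days overlapped. The rise was called from D0 to D2 (1.71 ± 0.48, adjusted p = 0.0107), from D2 to D4 (1.53 ± 0.35, adjusted p = 0.00345) and from D4 to D6 (0.82 ± 0.18, adjusted p = 0.00136), and at D6 Ina was 16.7 times higher than at D0 (4.06 ± 0.37, adjusted p = 4.27e-14). The early step rests on 14 reads at D0 and 18 at D2, and it was lost without D0 replicate 2 (adjusted p = 0.0603), without D2 replicate 2 (0.0631) and after thinning all libraries to the smallest (0.279). The D2 to D4 call was lost without D2 replicate 2 (adjusted p = 0.0551) or D2 replicate 3 (0.0514) and after thinning (0.0677). The D4 to D6 call was lost with limma-trend (adjusted p = 0.095) and after thinning (0.0971).

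The light and medium neurofilament chains arrived together between D2 and D4. Nefl, the light chain on which neurofilaments assemble, was at 14.4, 23.7 and 8.40 CPM at D0, 8.14, 4.08 and 15.6 at D2, 263, 137 and 191 at D4 and 171, 197 and 144 at D6. Nefm, the medium chain with a long side arm, was at 14.4, 10.9 and 12.6 at D0, 0, 24.5 and 15.6 at D2, 263, 324 and 394 at D4 and 235, 373 and 271 at D6. For both genes the D0 and D2 libraries overlapped, the D4 and D6 libraries overlapped, and the lowest late library stood far above the highest early one. D2 held only 5 reads of Nefl and 9 of Nefm in 545795 reads, so small changes between D0 and D2 could not be seen at this depth.

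Nefm was 24.7 times higher at D4 than at D0 (log2 fold change 4.62 ± 0.37, adjusted p = 4.19e-16) and 22.04 times at D6 (4.46 ± 0.37, adjusted p = 1.21e-15). Nefl was 11.7 times higher at D4 (3.55 ± 0.36, adjusted p = 2.71e-12) and 11.0 times at D6 (3.45 ± 0.36, adjusted p = 3.95e-12). From D2 to D4 the rise was 4.52 ± 0.56 for Nefm (adjusted p = 1.08e-08) and 4.12 ± 0.58 for Nefl (adjusted p = 5.01e-07). The D2 differences from D0 (0.10 ± 0.65 for Nefm, -0.57 ± 0.66 for Nefl) and the D6 differences from D4 (-0.16 ± 0.15 and -0.09 ± 0.18) were not called. Whether the steps of Ina, Nefl and Nefm differed from each other was not tested.

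In counts, 2 of the 6 tested genes were called higher at D2 against D0 (Nes and Ina), where 4.69% of all tested genes were. At D4 against D0 it was 5 of 6 (Vim, Nes, Ina, Nefl and Nefm), where 12.9% of all genes were called higher, and at D6 against D0 5 of 6 (Vim, Nes, Ina, Nefl and Nefm), where 19% were. The share of all calls that were higher rather than lower depended on scaling: at D6 it was 50.2% with TMM and 69.0% with library totals, at D4 50.7% and 62.5%, and at D2 43.4% and 65.9%. From D2 to D4, 4 of the 6 were called higher (Vim, Ina, Nefl and Nefm) against a background of 2.03%, and from D4 to D6 Ina alone was, against 4.04%. The share of all calls that were higher moved here too. From D2 to D4 it was 65.2%, and 47.7% without genes averaging under 20 reads. From D4 to D6 it was 47.9%, and 69.0% with library totals and 28.6% with limma-trend. None of the 6 was called lower in these 5 comparisons. Against D0, 6.11% of all tested genes were called lower at D2, 12.5% at D4 and 18.8% at D6. From D2 to D4 it was 1.08%, and from D4 to D6 4.39%. In bulk RNA, more cells of a kind and more RNA per cell cannot be told apart.

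**Figure D2:**
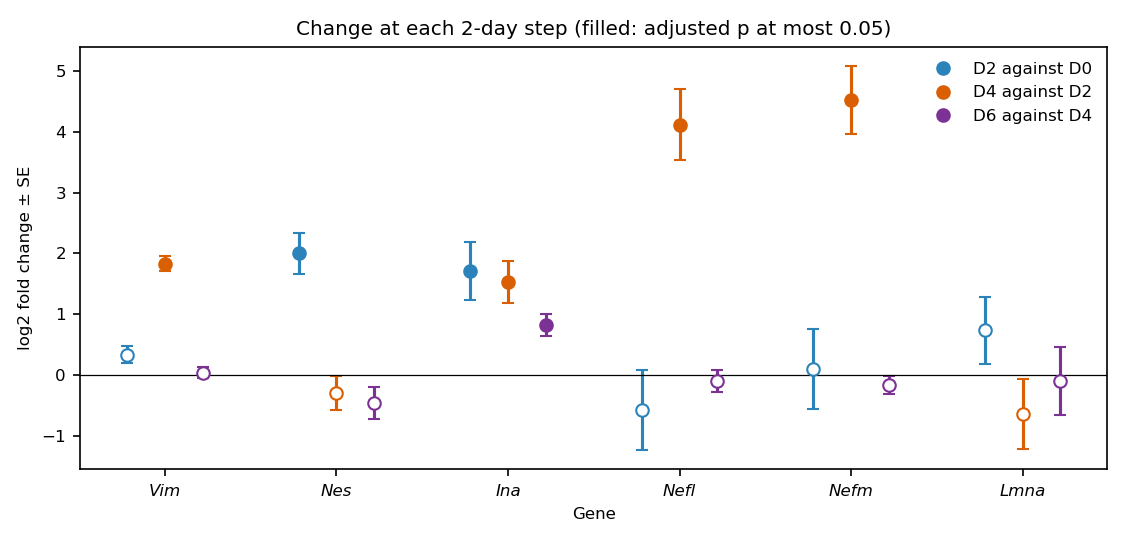
Log2 fold change with its standard error (y axis) for the 6 tested genes (x axis) at each 2-day step, from limma-voom over all 12 libraries. Filled points have an adjusted p of at most 0.05. Nes and Ina are called at the D2 step, Vim, Ina, Nefl and Nefm at the D4 step, and Ina at the D6 step.

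The keratins were nearly absent at D0 already. Krt8 had 2 reads, 1 in D0 replicate 1 and 1 in D0 replicate 3, and Krt18 had 4, of which 2 were in D0 replicate 1, 1 in D0 replicate 2 and 1 in D6 replicate 1. Krt19 had 0 of 4274320 reads, which allows up to 0.702 CPM, counting error only. At D0 the mean was 1.501 ± 1.31 CPM for Krt8 and 2.21 ± 2.43 for Krt18, against 377 for Vim in the same libraries. Krt8 had 0 of 2692189 reads from D2 to D6, which allows up to 1.11 CPM, below the D0 mean but within its spread. A program of these 3 keratins at D0 that gave way to a neural one was therefore not seen in these libraries, and no fold is given for these 3 genes.

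Lmna was low on every day. It had 54 reads, at 7.29 to 18.9 CPM at D0, 5.18 to 40.7 at D2, 8.34 to 16.1 at D4 and 10.4 to 10.8 at D6, and all days overlapped. No difference was called: the log2 fold change was 0.73 ± 0.55 at D2 (adjusted p = 0.456), 0.10 ± 0.53 at D4 (adjusted p = 0.918) and close to 0 ± 0.53 at D6. Of the 54 reads, 37 were on the lamin C transcript Lmna-203 and 5 on the lamin A transcript Lmna-201, which have different 3′ ends. The lamin C reads had a median mapping quality of 1. A further 5 reads were on the overlapping Lmna-202 and 7 on Lmna-205, a retained-intron transcript whose span covers both 3′ ends. The split among these transcripts is therefore uncertain, and the reads of all of them are in the totals of the shares below. Lamin C made up 50.0 to 66.7% of Lmna reads per library at D0, 66.7 to 100% at D2, 75 to 100% at D4 and 40.0 to 100% at D6. The mean share was 31.4 percentage points higher at D4 than at D0 (exact permutation p = 0.10, two-sided, the smallest that 3 against 3 libraries can give). The differences at D2 (26.7 points, exact permutation p = 0.2) and D6 (7.78 points, exact permutation p = 1) were smaller, and all rest on 1 to 9 Lmna reads per library. Without D6 replicate 1 the D6 difference was -10.6 points, and with reads of mapping quality 10 or more it was -33.3 at D6 and 8.33 at D2.

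Among the 9 genes, the make-up of the reads changed as follows. Vim held 81.6 to 83.7% of them at D0, 70.1 to 76.1% at D2, 66.1 to 74.9% at D4 and 69.2 to 73.8% at D6. Ina, Nefl and Nefm together held 7.66 to 8.81% at D0 and 7.04 to 9.20% at D2, and then 21.9 to 29.6% at D4 and 24.2 to 27.5% at D6. Nes held 9.86 to 20.5% at D2, its highest share, and 1.45 to 2.94% at D6. All 9 together made up 0.0403 to 0.0425% of all reads at D0 and 0.247 to 0.301% at D6.

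**Figure D3:**
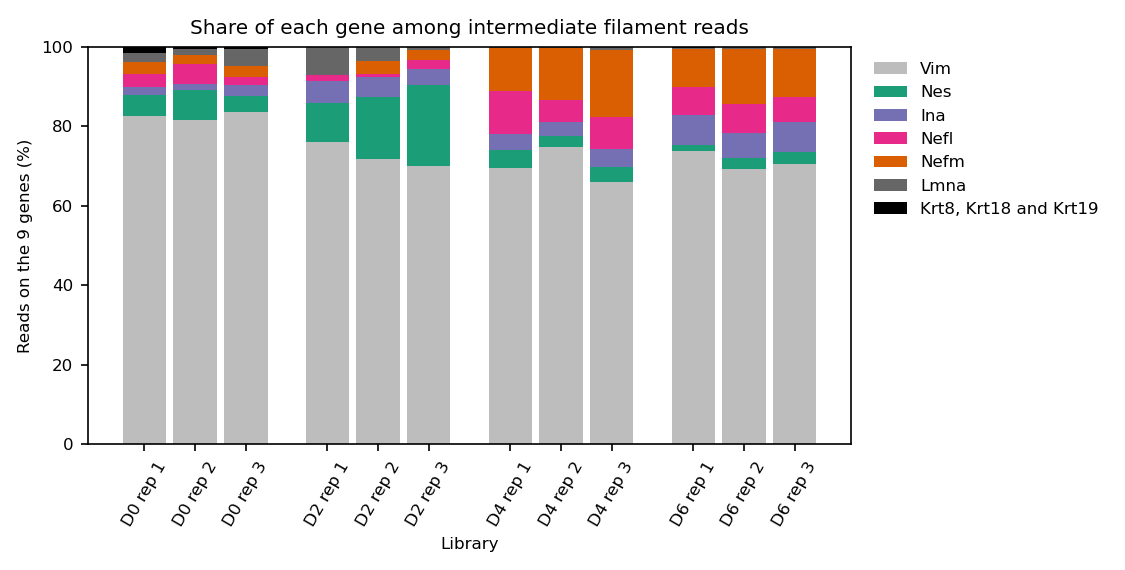
Percentage of the reads on the 9 genes that fell on each gene (stacked bars, y axis) in each of the 12 libraries (x axis). Vim is the largest share in every library, Nes is widest at D2, and Ina, Nefl and Nefm together widen from 7.04 to 9.20% at D0 and D2 to 21.9 to 29.6% at D4 and D6.

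The order of levels changed with this. At D0 the mean order was Vim, Nes, Nefl, Nefm, Lmna and Ina, and apart from Vim each gene overlapped its neighbor in that order. At D6 it was Vim, Nefm, Ina, Nefl, Nes and Lmna, where Nefm (235 to 373) did not overlap Ina (166 to 189), Ina overlapped Nefl (144 to 197), and Nefl did not overlap Nes (35.6 to 78.8). The ratio of Nefm to Nefl reads was 1.37 to 1.89 in the D6 libraries and 1.00 to 2.36 at D4, where both had 63 reads in replicate 1.

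The D6 runs fell into an earlier and a later period, and all D0 runs were of the earlier one, so D0 and D6 could be set side by side within it. D2 and D4 were not set beside D0 in this way, so their differences from D0 carry no such comparison. In the earlier runs, as CPM before TMM scaling, Vim was at 337 to 347 at D0 and 1755 to 2146 at D6, Nefm at 9.78 to 13.4 and 224 to 434, and Ina at 6.52 to 11.6 and 187 to 199. Nefl was at 7.71 to 21.2 and 141 to 230, and Nes at 15.4 to 32.6 and 41.4 to 83.7. The later D6 runs, which held the same replicates, gave 1664 to 2163 for Vim, 259 to 408 for Nefm, 177 to 199 for Ina and 129 to 215 for Nefl. Nes was at 33.15 to 92.6 in them, reaching down to just above the highest D0 value.

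Poly(A) tails were then compared. Only Vim, of the 9 genes, had the 10 reads in each library that the tail test required. Its median tail was 67.1, 55.9 and 68.3 nt in the D0 libraries, 88.9, 82.5 and 77.7 at D2, 85.8, 75.4 and 85.1 at D4 and 85.1, 81.4 and 89.98 at D6. The D0 libraries were the 3 shortest and overlapped no later day. Over all reads the library medians were 95.2 to 105 nt, with D0 at 100.2 to 105, so Vim tails were shorter than the bulk on every day and by more at D0.

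In the limma fit on gene medians over 1747 genes, Vim tails were 21.7 ± 4.84 nt longer at D6 than at D0 (adjusted p = 0.0129). Among all genes 2.46% were called longer at D6, and the median change was 1.55 nt. At D4 the difference was 18.4 ± 4.84 nt (adjusted p = 0.0381), where 0.286% of genes were called longer and the median change was -2.16 nt. At D2 it was 18.4 ± 5.12 nt and was not called (adjusted p = 0.136). The D6 call was lost without D0 replicate 2 (17.8 nt, adjusted p = 0.0791), without D6 replicate 3 (19.5 nt, adjusted p = 0.0571) and with only the D0 and D6 libraries in the fit (adjusted p = 0.0689). The D4 call was lost in 9 of 12 fits that left out 1 library, among them that without D0 replicate 2 (14.4 nt, adjusted p = 0.199).

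The share of Vim tails from 30 to 90 nt was 54.9 to 61.5% at D0, 44.4 to 46.1% at D2, 46.0 to 48.0% at D4 and 43.9 to 50.2% at D6, with D0 above every later library. It fell by 11.1 ± 2.99 percentage points at D6 (adjusted p = 0.0323), where 1.20% of genes were called lower, and by 10.6 ± 2.99 at D4 (adjusted p = 0.0477), where 0.343% were. Leaving out single libraries took the adjusted p from 0.035 to 0.132 at D6 and from 0.0497 to 0.145 at D4, and the call held in 6 of 12 such fits at D6 and in 1 of 12 at D4. Tails over 150 nt made up 6.86 to 11.5% of Vim reads at D0 and 16.3 to 18.6% at D6. The share under 30 nt was 7.05 to 16.9% at D0 and 4.31 to 9.84% at D6 and was not called (-4.03 ± 2.56 points, adjusted p = 0.582).

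Reads that reached the 5′ end of Vim, which are whole molecules, were read separately. The share of such reads varied from 15.7 to 64.1% between libraries and overlapped between days. Their median tail was 49.9, 53.2 and 62.8 nt at D0, 59.0 to 95.5 at D2, 77.3 to 87.5 at D4 and 81.5 to 87.2 at D6, so that D4 and D6 stood above D0 and D2 overlapped all other days. Within the earlier runs, Vim medians over all reads were 55.9 to 68.3 nt at D0 and 81.2 to 85.4 at D6, and the later D6 runs gave 81.8 to 94.1.

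**Figure D4:**
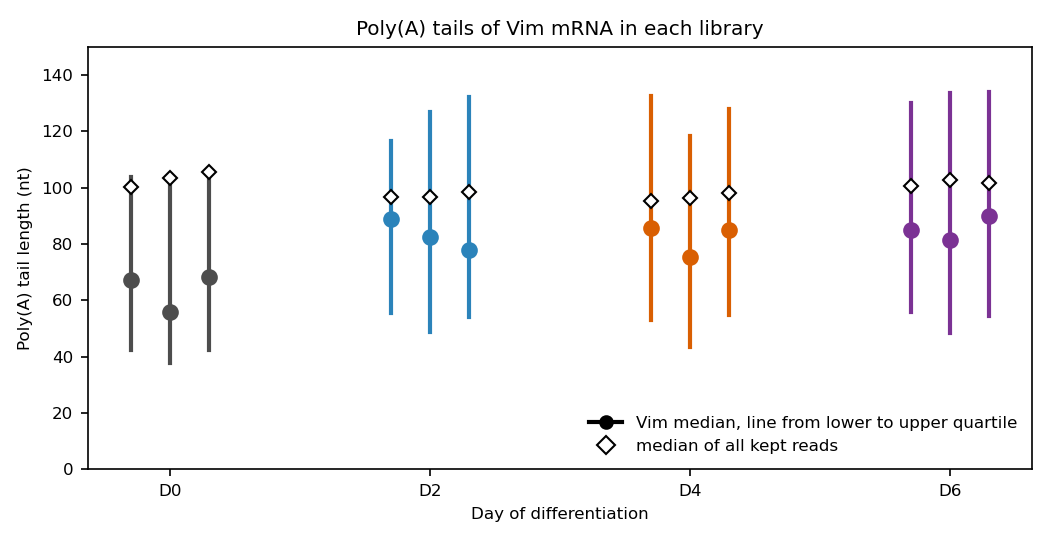
Median poly(A) tail length of Vim reads (points, nt, y axis) with the lower to upper quartile (lines) in the 3 libraries of each day (x axis), and the median over all reads of the library (open diamonds). The 3 D0 medians lie between 55.9 and 68.3 nt and those of later days between 75.4 and 89.98 nt, all under the medians over all reads.

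The tails of the neural filament mRNAs were set against each other where reads sufficed, at D4 and D6. Ina had medians of 118, 126 and 124 nt at D4 and 139, 132 and 116 at D6. Nefl was at 103, 87.9 and 94.0 at D4 and 87.0, 90.6 and 87.6 at D6, and Nefm at 62.5, 85.2 and 87.1 at D4 and 95.1, 97.1 and 91.9 at D6. All 6 Ina medians exceeded all 6 medians of Nefl and of Nefm. Within run periods this did not hold for Nefl, since the earlier runs of D6 replicate 3 gave 104 nt for Ina and 105.9 for Nefl, and the later runs of D6 replicate 2 gave 113 and 119. Nes was at 115.5, 119 and 98.5 at D4, overlapping Ina, and at 74.6, 102 and 74.7 at D6, on 10 to 38 reads a library. In a fit of D4 and D6 alone, which was added after the data were seen, tails from D4 to D6 differed by 14.2 ± 6.57 nt for Nefm (adjusted p = 0.614), -6.08 ± 6.24 for Nefl (0.839), 5.51 ± 8.25 for Ina (0.889) and -20.9 ± 11.2 for Nes (0.637), and none was called.

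Nefl mRNA ended at 2 places, a feature noticed in the reads and not looked for in advance. Reads that stopped between bases 2000 and 2300 of the 3380-base transcript Nefl-201 were taken as proximal (234 reads) and those that stopped after base 3300 as distal (182 reads). The most frequent last base was 2175 for the proximal end, with 179 reads (76.5%) within 5 bases of it, and 3375 for the distal end, with 116 (63.7%). The windows printed above show AATAAA before both. Only 2 of the 20 bases after the proximal end were A, so the annotated sequence there holds no long A run.

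The proximal end held 2 of 6, 4 of 13 and 1 of 4 reads in the D0 libraries, which is 33.3, 30.8 and 25.0%. At D4 it held 65.1, 58.2 and 60.5% of 63, 55 and 81 reads, and at D6 60.4, 52.7 and 50.0% of 48, 91 and 50 reads. No D4 or D6 library overlapped D0, where the pooled share of 7 in 23 reads has a Wilson 95% interval of 15.6 to 50.9%, counting error only. The mean share was 29.7 ± 4.27% at D0, 61.3 ± 3.51% at D4 and 54.4 ± 5.40% at D6 (SD, n = 3). The differences of 31.5 points at D4 and 24.7 at D6 each had an exact two-sided permutation p of 0.10, the smallest possible with 3 against 3. D2 had 5 such reads in all, and no share is compared.

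Both forms rose. Reads at the proximal end went from 4.73 ± 2.60 CPM at D0 to 120 ± 48.0 at D4 and 90.2 ± 19.5 at D6, and reads at the distal end from 10.8 ± 5.15 to 73.3 ± 18.6 and 74.9 ± 12.4. In the 6 libraries of D4 and D6, the median tail of proximal reads was longer than that of distal reads in 5, by 22.8 ± 23.8 nt on average (SD, n = 6, exact sign-flip permutation p = 0.0625, two-sided, smallest possible 0.0312). D6 replicate 1 was the exception, at -8.93 nt. At D0, on 1 to 4 proximal reads a library, the difference had the other sign in all 3 libraries (-13.4, -3.59 and -26.3 nt).

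**Figure D5:**
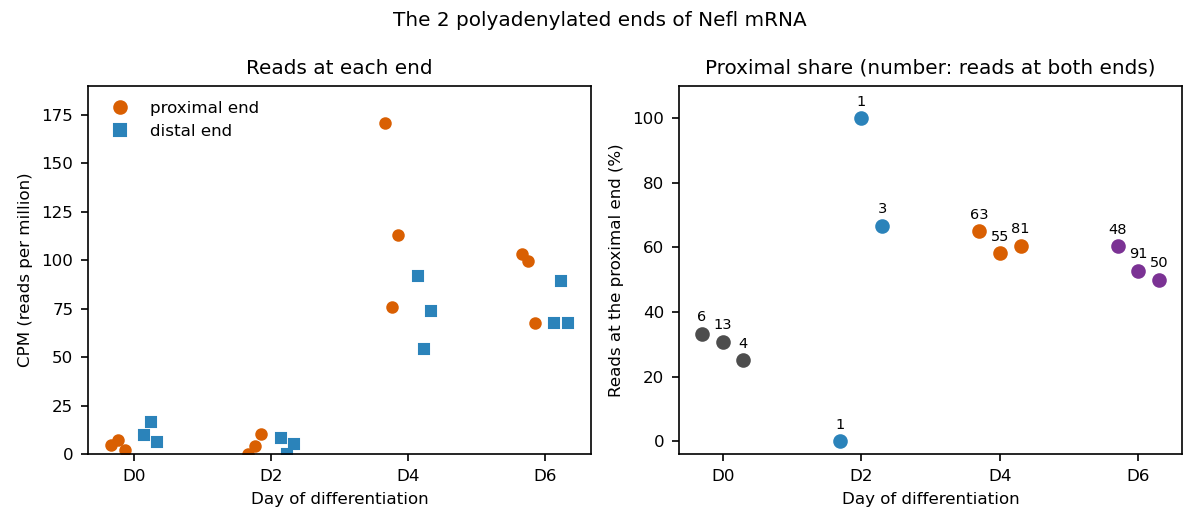
Left, level (CPM) of reads ending at the proximal and at the distal end of Nefl mRNA in each library; right, the percentage of reads at the proximal end, with the number of reads at both ends beside each point. The 3 D0 libraries lie between 25.0 and 33.3% on 4 to 13 reads, the D4 and D6 libraries between 50.0 and 65.1%, and D2 rests on 1 to 3 reads a library.

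The rest of the intermediate filament family was thin. Of 42 other listed genes, 14 had reads and 5 were tested, and at D6 against D0 3 were called higher and none lower (19% of all genes were called higher). These 3 were Prph, the peripheral neuron filament peripherin (2.59, adjusted p = 1.14e-05, 87 reads over the series), the keratin gene Krt10 (2.18, adjusted p = 0.000135, 110 reads) and Iffo1, a nuclear filament-like gene (1.27, adjusted p = 0.0265, 56 reads), named after their values were seen. The B-type lamin genes Lmnb1 (612 reads, log2 fold change 0.37, adjusted p = 0.108) and Lmnb2 (129 reads, -0.39, adjusted p = 0.373) were not called at D6, and both had more reads than Lmna. At D4 against D0, 3 of the 5 were called higher and 1 lower (12.9% and 12.5% of all genes were), among them Lmnb1 (0.52, adjusted p = 0.024) and, as the lower one, Lmnb2 (-0.99, adjusted p = 0.0369). The heavy neurofilament chain Nefh had 17 reads, the astrocyte filament gene Gfap 1, and the muscle filament gene Des 12, all of them at D0.

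Genes that anchor or organize the filaments were read at D6. Of 6 tested plakin and desmosome genes at D6, 2 were called lower (Pkp2, -2.08, adjusted p = 0.00191, and Pkp4, -0.97, adjusted p = 0.0363, both desmosomal or junctional plakophilins, named after their values were seen) and none higher, with a list median of -0.24, where 18.8% of all genes were called lower. Of 15 tested genes of lamina partners and lamin processing, 4 were called higher and 1 lower, where 19% and 18.8% of all genes were, with a median of -0.07 against -4.83e-06 over all genes. Those named by the rule on read number were Emd, the inner nuclear membrane protein emerin (1.46 times higher, adjusted p = 0.0454), and Banf1, a DNA-bridging factor that binds lamins and emerin (0.716 times the D0 level, adjusted p = 0.000456).

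Marker lists gave the setting, and their counts at D6 stand against 19% of all genes called higher and 18.8% called lower. At D6, 7 of 10 tested neural progenitor genes were called higher and 1 lower, among them Hes5, a Notch target (log2 fold change 7.24), Fabp7, a radial glia lipid carrier (6.94), and Pax6 (1.44), with Sox2 lower (-0.41). The neuron list was higher in 9 of 9, with Map2 at 4.78 and Tubb3, neuronal beta-tubulin, at 2.65. The summed level of the neuron list was 536 to 560 CPM at D0, 317 to 518 at D2, 1371 to 1589 at D4 and 2675 to 2796 at D6. The list of simple epithelium, trophectoderm and endoderm, without the 3 keratins, had 3 tested genes, of which 2 were called lower and none higher at D6. It summed to 290 to 306 at D0, 40.7 to 57.1 at D2, 61.5 to 108 at D4 and 135 to 171 at D6. Sparc, a matrix protein, made up most of that sum at D0 and D6, at 226 ± 8.08 CPM at D0, 15.7 ± 5.03 at D2 and 129 ± 18.6 at D6. Glial genes (2 tested, 1 lower) and genes of fibroblasts, mesoderm and smooth muscle (2 tested, both lower) did not rise with Vim at D6: their sums were 46.1 to 57.0 and 10.4 to 24.9 CPM at D6, against 71.4 to 111 and 62.0 to 74.5 at D0. The part of such other cells in the Vim values was not tested.

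Genes with the pattern most like Vim, by Pearson correlation of log2 level over the 12 libraries among 2795 genes with a mean of at least 20 reads, were H3f3b (r = 0.988), Ddah2 (0.985), Tle5 (0.985), Tubb2b (0.976) and Fez1 (0.975). For Nefm they were Ndfip1 (0.972), Vim (0.961), Fez1 (0.956), Ddah2 (0.956) and Dynlrb1 (0.955). The 12 libraries fall into 4 days, and libraries of a day share runs, so these values describe a day pattern and carry no test. Krt8, with 2 reads, has no such list.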

How the data were processed

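Direct RNA reads of 12 libraries were used from the authors' per-read table, which lists 6306434 alignments. The authors used Guppy for base calling, minimap2 (2.20 in the submitters' notes) to align to mm10 transcripts, Nanopolish for tails and Deeplexicon for barcodes. Tail length and mapped positions are deposited in nucleotides, the authors' mapping quality is a score, and their barcode confidence is a fraction. The authors' table of DESeq2 fold changes and p-values was not used. Replicate p-values measure the spread between the 3 cultures of a day.

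Kept reads had the tag PASS, class mRNA and an assigned library, without mitochondrial genes and pseudogenes (0.0558% were repeat alignments). Tallies per gene and transcript were fitted with limma-voom (limma 3.58.1, R 4.3.3) with TMM scaling, on features with at least 30 reads, since the deposited files hold no count table. CPM values refer to the TMM-scaled library. Tail medians per gene and library were fitted with limma, weighted by reads up to 100. Single values were compared by exact permutation tests. Scripts were tested on simulated data. Members, lists and tests were chosen with earlier results of these data known. Genes were named by a fixed rule, with exceptions in the intermediate filament family and the desmosome list chosen after their values were seen: all 9 members, and at most 6 of a list averaging 20 or more reads per library, with an adjusted p of at most 0.05 and the largest change at D6. Of 34244 transcripts with reads, 97.8% matched the GENCODE reference used for positions, and promoters are from RefSeq. Python 3.11.15, pandas 2.3.3, scipy 1.17.1 and matplotlib 3.10.9 were used.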

Additional observations from a re-analysis of the deposited data

How the results depend on the processing

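Of 652 values that alternatives gave for the 6 tested genes over the 5 day comparisons, 638 kept the direction of any call and the side of the threshold, 10 lost a call and 4 gained one, and none reversed. All those lost were Ina at the steps D2 against D0, D4 against D2 and D6 against D4, or Nes at D4 and D6 after thinning to the smallest library (adjusted p = 0.0786 and 0.0959), and all those gained were Vim at D2. Vim, Ina, Nefl and Nefm stayed called at D4 and D6 against D0 in every alternative run. The replicate block changed no abundance call of the 6 genes. Replicate numbers are barcodes. Of 18 pairs of libraries with the same number, 4 deviated together (correlation over 0.1), against 2 of 36 pairs with different numbers. The largest correlation was 0.172 and 0.171 in these sets, and 9 of 12 libraries correlated best with their own number. The fit reported does not pair the samples by number, and the replicate block is given as the alternative.

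Of the 6 genes, 1 was called at D2 against D0 with mapping quality of at least 10 or after thinning, 3 with scaling by library totals, without genes averaging under 20 reads, with only the 2 days compared or at barcode confidence 0.9, and 1 to 2 without single libraries (2 in the fit reported), 3 to 4 at D4 against D2 without single libraries, and 0 at D6 against D4 with limma-trend or after thinning. Over all genes at D2 against D0 the count was 1006 and became 1615 with no filter, 539 with a mean of at least 20 reads, 569 at mapping quality 10, 334 after thinning and 655 to 1028 without single libraries. At D4 against D0 it was 2364, and 1165 with a mean of at least 20 reads and 682 after thinning. At D4 against D2 it was 290, and 454 with limma-trend, 118 after thinning and 165 to 320 without single libraries. At D6 against D0 it was 3516, and 1509 with a mean of at least 20 reads, 2179 at mapping quality 10 and 1223 after thinning. At D6 against D4 it was 785, and 493, 416 and 212 under the same 3 settings, 444 with limma-trend and 433 to 789 without single libraries. Both the read minimum and thinning leave fewer reads or genes.

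For Vim tails, the difference from D0 without single libraries ranged from 14.4 to 21.7 nt at D4 and from 17.8 to 24.0 nt at D6. At D4 the 18.4 nt lost its call with no weights (adjusted p = 0.101), with at least 5 reads in each library (0.108) and with only the 2 days compared (0.204), and at D6 the 21.7 nt only in the last of these (0.0689). At D2 the 18.4 nt passed with at least 30 reads in each library (0.017). The share of 30 to 90 nt changed by -8.53 to -11.8 points at D4 and -9.12 to -13.1 points at D6 without single libraries. At D4 it was -10.6 points and uncalled with no weights, with at least 5 reads, with 2 days only and in the fit with the replicate block (adjusted p = 0.0565), -10.5 at mapping quality 10 and -8.74 with limits of 35 and 85 nt. At D6 it was -11.1 and uncalled with no weights, at least 5 reads or 2 days only, and -9.28 with limits of 35 and 85 nt. At D2 the -12.0 points passed with at least 30 reads. Calls of longer or shorter tails over all genes went from 89 at D4 to 40 with no weights, 24 with at least 5 reads, 0 with 2 days only (limma) and 0 to 93 without single libraries, and from 143 at D6 to 79 with no weights, 21 with 2 days only, 221 with mean tails and 40 to 144 without single libraries. Calls of the 30 to 90 nt share went from 83 at D4 to 33 with no weights, 37 with at least 5 reads, 17 with 2 days only, 47 with the other limits and 16 to 77 without single libraries, and from 93 at D6 to 56 with no weights, 56 with at least 5 reads, 47 with 2 days only and 42 to 94 without single libraries. Of the tail length calls at D6, 30.1% were longer in the fit reported. This share was 60.2% with mean tails and 71.4% with 2 days only. The cause of these shifts was not tested.

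At mapping quality 10, lamin A shares differed from D0 by -25.0 points at D2 (-2.78 with all reads), -25.0 at D4 (-8.33) and 33.3 at D6 (13.3), and lamin C shares by 8.33 at D2 (26.7) and -33.3 at D6 (7.78), each on few reads. With all reads but without single libraries, the lamin A difference ran from -8.33 to 5.56 points at D2. It ran from -12.5 to 0 at D4 and from 4.17 to 24.2 at D6. Nefl proximal shares differed from D0 by 29.2 to 33.4 points at D4 and 21.7 to 26.9 at D6 without single libraries. Fits with at least 5 reads or with 2 days only for tails, and all values for Nefl ends, were chosen after seeing the data. Depth limits the D2 day most, and Krt8, Krt18, Krt19 and Lmna throughout.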
